A study of Mus musculus with 3 samples.

Results

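The genes described here were 10 neuropeptide genes of the mouse brain, Vip, Tac2, Crh, Cck, Sst, Cort, Npy, Tac1, Nmb and Adcyap1, and they were followed through the nuclei of 3 single-nucleus RNA libraries. They were given as a list of gene names and are 10 of the 32285 genes of the deposited matrices, and all of them had counts. The study compared prefrontal cortex of mice that lack Nav1 (neuron navigator 1, a microtubule-associated protein of neurons) with that of control mice, and also deposited a library of another inbred strain. Each group was a single library of sorted nuclei, both positive and negative for the neuronal protein NeuN, from male mice aged 6 to 8 weeks. The first group was wild-type mice labelled C57BL/6 (C57BL/6J in the study's methods, the name used below), a pool of 5 animals. The second was the Nav1 KO, a pool of 4 animals, which carry a CRISPR deletion in exon 1 of Nav1 on the C57BL/6J background, an inherited deletion that is not limited to a cell type or an age. The third was the strain BTBR T<+> Itpr3<tf>/J, called BTBR below, for which no number of animals was given. Because each group was 1 library, no test between groups was possible, and every interval below covers counting error only and holds no spread between animals.

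Neuropeptides are short signalling peptides that are cut from larger precursor proteins inside dense core vesicles, and they act on G protein-coupled receptors of nearby cells more slowly and more widely than the fast transmitters. In the cortex, most peptide-rich neurons are inhibitory interneurons that release GABA, and the peptide a cell makes has long served as a name for its kind: Sst cells contact dendrites, Vip cells mostly inhibit other interneurons, and neurogliaform cells carry Npy. Excitatory cortical neurons also make Cck, and striatal projection neurons of the direct pathway make the peptides of Tac1.

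The peptide genes that belong to a family are related in the coding sequence of the peptide itself. The stretches below are the most similar parts of genes paired in advance as members of a family, and genes outside a family were not compared. They were read from the GENCODE M21 coding transcripts on GRCm38, 5′ to 3′ on the coding strand. Capitals mark the bases that were the same in every stretch of a family. Sst encodes somatostatin, and Cort encodes cortistatin, which acts on the same receptors. Their shared core lies at chr16:23889732-23889767 (minus strand) in Sst and chr4:149125270-149125305 (minus strand) in Cort, and 30 of its 36 bases were the same.
Sst: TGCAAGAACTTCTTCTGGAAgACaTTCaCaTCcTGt
Cort: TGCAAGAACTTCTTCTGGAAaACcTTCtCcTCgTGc
The tachykinins share their end, which is followed by the signals for amidation and cleavage. Tac1 encodes substance P and neurokinin A, at chr6:7556750-7556773 and chr6:7559116-7559139, and Tac2 encodes neurokinin B at chr10:127729131-127729154, all on the plus strand. Of the 24 bases, 16 were the same in the 3 stretches, and they encode the same residue at 7 of 8 codons.
Tac1, substance P: TTctTtGGAtTaATGGGCAAgcGg
Tac1, neurokinin A: TTtgTtGGAcTaATGGGCAAaaGa
Tac2, neurokinin B: TTtgTgGGAcTtATGGGCAAgaGg
Vip encodes vasoactive intestinal peptide and Adcyap1 encodes its relative PACAP. Their most similar stretch lies at chr10:5644009-5644092 in Vip and chr17:93203975-93204058 in Adcyap1 (both plus strand), begins a few codons before the mature peptide, and held 65 same bases of 84.
Vip: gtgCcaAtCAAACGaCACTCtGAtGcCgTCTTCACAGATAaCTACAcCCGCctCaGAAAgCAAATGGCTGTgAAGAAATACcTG
Adcyap1: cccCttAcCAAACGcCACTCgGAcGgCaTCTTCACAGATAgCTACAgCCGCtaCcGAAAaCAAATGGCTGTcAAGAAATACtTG
No exon of 9 of the 10 genes overlapped another gene in this annotation. Nmb, at chr7:80902227-80905076 on the minus strand, shared 163 exonic bases with Sec11a on the same strand, so its counts are less certain than the others.

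After nuclei with fewer than 200 genes or at least 10% mitochondrial counts were left out, 14630 C57BL/6J, 14056 Nav1 KO and 14778 BTBR nuclei remained, with medians of 2074 to 2754 unique molecular identifiers (UMIs, each 1 captured RNA molecule) per nucleus. Between 55 and 66 cell barcodes were shared by each pair of libraries. Nuclei were clustered without the 10 peptide genes and named from other marker genes, which gave 21 named classes, written "-like". The clusters that reached no name held 25.4%, 11.8% and 25.0% of the C57BL/6J, Nav1 KO and BTBR nuclei, besides unnamed interneurons at 2.82%, 1.74% and 2.84%. The tissue was more than cortex: olfactory bulb mitral or tufted cell-like nuclei numbered 39, 568 and 386, and striatal medium spiny neuron-like nuclei 1563, 495 and 631. The deletion lies within exon 1 of Nav1, and the matrices hold counts per gene without read positions, so the Nav1 counts check nothing about the genotype. The Nav1 level was 345, 264 and 146 counts scaled to 1000000 (CPM) in C57BL/6J, Nav1 KO and BTBR. A level below is the CPM of a gene among all counts of a class in a library, and a share is the percentage of nuclei with at least 1 UMI of the gene after every nucleus was thinned to 1000 UMIs. Before thinning, the median depth of the 4 leading interneuron classes was 1477 to 2650 UMIs, that of layer 2/3 neuron-like nuclei 2502 to 3135 and that of microglia-like nuclei 2886 to 4463. The leading class of a gene is the one with the highest mean CPM over the 3 libraries among the 18 classes with at least 30 nuclei in each.

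The 10 genes had 5 leading classes. Vip, Tac2, Crh and Cck led in Vip interneuron-like nuclei, Sst and Cort in Sst interneuron-like nuclei, Npy in Lamp5 Ndnf interneuron-like nuclei, which hold the neurogliaform cells, and Tac1 in Pvalb interneuron-like nuclei. Nmb and Adcyap1 led in olfactory bulb mitral or tufted cell-like nuclei, so 8 of the 10 genes reached their highest mean level in interneuron classes. The markers were not chosen to tell cortical from striatal interneurons, and striatal nuclei were present, so whether these interneurons were cortical was not tested. A leading class did not need to hold most of the molecules of a gene, and those of Tac1, Cck, Npy, Nmb and Adcyap1 did not in any library.

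**Figure D1:**
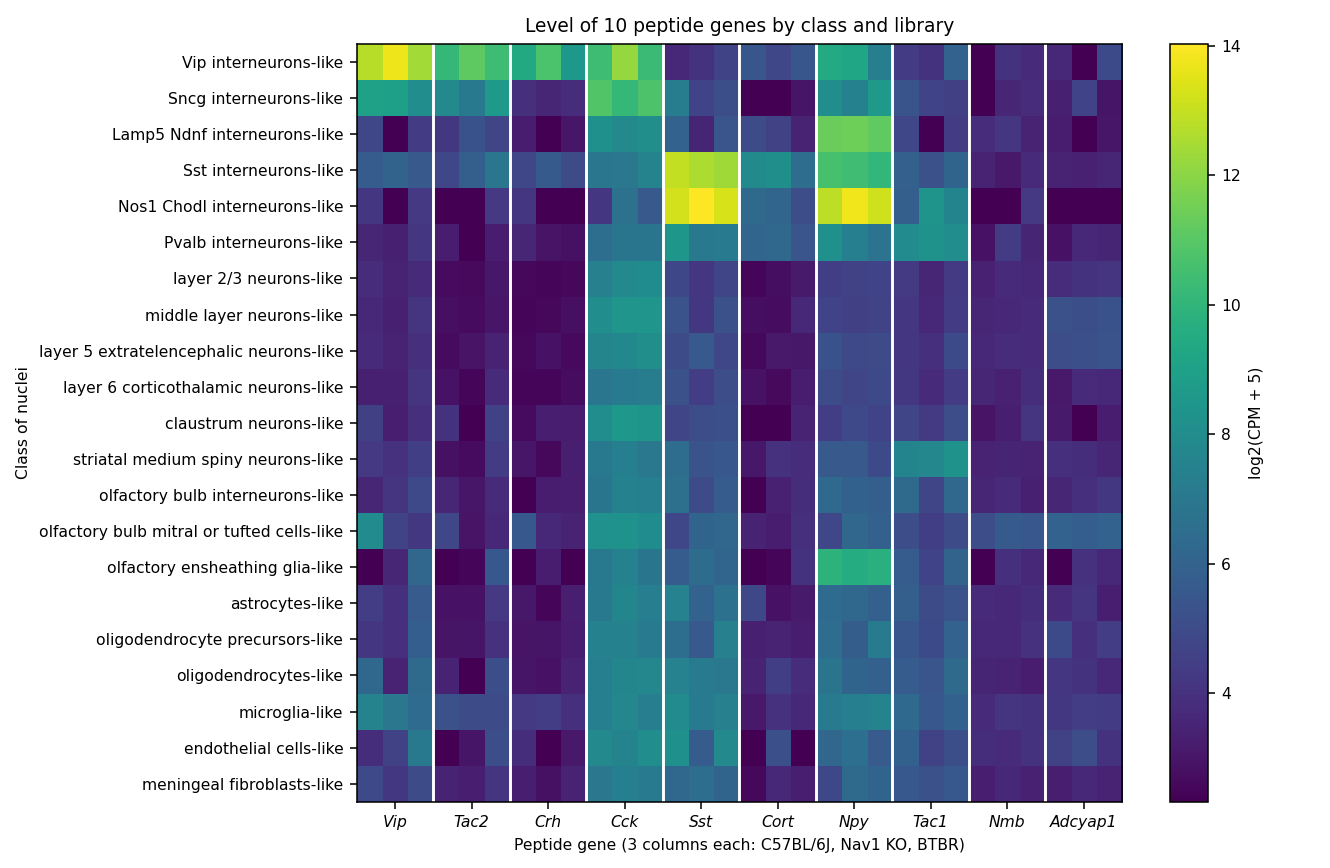
The heat map shows the level of each peptide gene as log2(CPM + 5), with 1 row per class of nuclei and 3 columns per gene for the C57BL/6J, Nav1 KO and BTBR libraries. Vip, Tac2, Crh, Sst, Cort and Npy are brightest in a few interneuron rows. Npy is also bright in olfactory ensheathing glia-like nuclei (mean 852 CPM), and Sst has an intermediate level in some glial rows, such as microglia-like nuclei (mean 185 CPM). Cck is brightest in the Vip and Sncg interneuron-like rows. It has an intermediate level in most others, down to a mean of 51.5 CPM in Nos1 Chodl interneuron-like nuclei.

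Vip, whose peptide dilates vessels and raises cyclic AMP in its target cells, reached its highest level in the class named for it. Its level in Vip interneuron-like nuclei was 6969.8 CPM in C57BL/6J (interval 6521 to 7441), 13718 in the Nav1 KO and 5416 in BTBR. The next class, Sncg interneuron-like nuclei, lay between 261 and 517 CPM, so the first and second place did not overlap in any library. Layer 2/3 neuron-like nuclei, which should lack the gene, had 9.04, 5.89 and 8.57 CPM. At 1000 UMIs, 81.2% of the C57BL/6J, 90.3% of the Nav1 KO and 76.9% of the BTBR Vip interneuron-like nuclei had a Vip UMI (79.7%, 94.1% and 82.4% without thinning), against 0.859%, 0.740% and 1.11% of layer 2/3 neuron-like nuclei. The median depths of these classes were 1518.5, 2248 and 1612 UMIs and 2502, 3135 and 2897 UMIs, so the class with the high share was the shallower of the pair. Microglia-like nuclei were another class that should lack Vip, and their share was 6.06%, 2.83% and 4.32%. Vip was not among the marker genes and was left out of the clustering, so its level in the class named for it is independent of the name, although the markers are known companions of Vip.

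Tac2, the neurokinin B gene, followed the pattern of Vip closely. Vip interneuron-like nuclei held 1118 CPM in C57BL/6J, 2246 in the Nav1 KO and 1319.7 in BTBR, and 37.5%, 58.1% and 38.5% of them had a UMI (37.8%, 58.8% and 40.3% without thinning). Sncg interneuron-like nuclei came second with 220.0, 129 and 401 CPM, and Sst interneuron-like nuclei followed with 23.0, 52.5 and 115 CPM. In layer 2/3 neuron-like nuclei the level was at most 3.51 CPM.

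Crh, which encodes corticotropin-releasing hormone, the first signal of the stress axis and a local peptide in cortex, had its second highest class far below the first. Its level in Vip interneuron-like nuclei was 683 CPM in C57BL/6J, 1670.2 in the Nav1 KO and 376 in BTBR. Sst interneuron-like nuclei, the next class, had 23.0 to 45.0 CPM, and layer 2/3 neuron-like nuclei had 0.721 to 1.01 CPM. The share of Vip interneuron-like nuclei with a Crh UMI was 32.8%, 35.5% and 16.3% (36.5%, 41.2% and 27.7% without thinning). In the Nav1 KO layer 2/3 neuron-like nuclei 0 of 2161 had one at this depth, which allows a share of up to 0.139%.

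Cck, which encodes cholecystokinin, the most abundant peptide of the cortex, behaved differently. Its highest levels were in Vip interneuron-like nuclei, with 1343, 4619 and 1273 CPM in C57BL/6J, Nav1 KO and BTBR, and in Sncg interneuron-like nuclei, the Cck basket cell class, with 1831, 1108 and 1723 CPM. The order of these 2 classes differed between libraries: Sncg interneuron-like nuclei were higher in C57BL/6J and BTBR and lower in Nav1 KO, where they numbered 29 and so missed the minimum for a leading class. At 1000 UMIs a Cck UMI was found in 61.4%, 55.2% and 61.9% of Sncg interneuron-like nuclei and in 32.8%, 54.8% and 35.6% of Vip interneuron-like nuclei (77.4%, 89.7% and 80.4%, and 33.8%, 55.9% and 42.9%, without thinning). Claustrum neuron-like nuclei (266 to 378 CPM), middle layer neuron-like nuclei (259 to 344 CPM) and mitral or tufted cell-like nuclei (252 to 310 CPM) overlapped each other and cannot be ordered. Layer 2/3 neuron-like nuclei had 167, 226 and 258 CPM, and 15.8%, 21.2% and 21.2% of them had a UMI. Microglia-like nuclei, which should lack Cck, had 164, 209 and 158 CPM, and a UMI in 14.7%, 18.0% and 12.2%. The C57BL/6J and Nav1 KO shares in layer 2/3 neuron-like nuclei had intervals that overlapped those of microglia-like nuclei (14.2% to 17.5% against 10.0% to 20.4%, and 19.5% to 23.0% against 13.7% to 23.0%). Microglia-like nuclei held more of other peptide genes than layer 2/3 neuron-like nuclei did. In C57BL/6J, Vip was at 185 against 9.04 CPM and Sst at 246 against 24.3 CPM. The overlap therefore decides nothing, and how much of the layer 2/3 Cck was background RNA was not tested. In BTBR the layer 2/3 interval (19.5% to 23.1%) lay above that of microglia-like nuclei (9.12% to 15.8%). For Cck, microglia-like nuclei were a low reference there, since BTBR endothelial cell-like nuclei had 263 CPM and oligodendrocyte-like nuclei 211. The other glial classes and meningeal fibroblast-like nuclei were lower. Cck in BTBR layer 2/3 was thus not above every non-neuronal class.

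Glutamatergic classes held more of the Cck molecules than the 6 named interneuron classes did. They held 44.4% of the Cck UMIs in C57BL/6J, 46.1% in the Nav1 KO and 36.2% in BTBR, and the interneuron classes held 9.14%, 5.81% and 9.62%. Glutamatergic classes also held a large part of all counts. Layer 2/3 and middle layer neuron-like nuclei alone had 5971281 and 5441132 of the 38704723 C57BL/6J counts. The Cck shares are therefore no measure of enrichment, and how much of them was background RNA was not tested. For Vip the named interneuron classes held 51.3%, 60.8% and 45.6%, for Tac2 56.1%, 58.1% and 46.4%, and for Crh 51.2%, 53.6% and 35.2%.

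**Figure D2:**
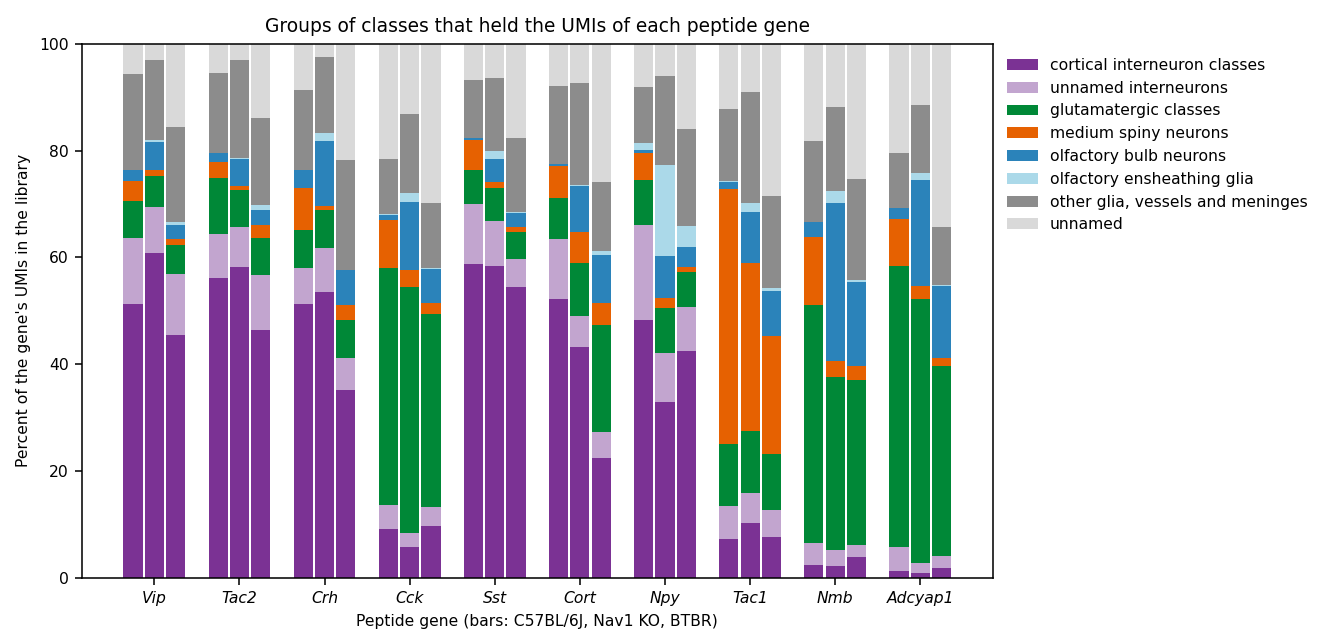
Stacked bars give the percentage of each gene's UMIs that lay in 8 groups of classes, with 1 bar each for C57BL/6J, Nav1 KO and BTBR. Named interneuron classes held 45.6% to 60.8% of the Vip UMIs but 5.81% to 9.62% of the Cck UMIs, and medium spiny neurons held 47.9% of the Tac1 UMIs in C57BL/6J and 22.1% in BTBR.

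Sst, whose peptide inhibits release from its target cells, also took no part in naming the class that carries its name. Sst interneuron-like nuclei held 7903.5 CPM in C57BL/6J (interval 7653 to 8159.7), 6059 in the Nav1 KO and 5280.5 in BTBR. Their share with a UMI was 74.7%, 79.0% and 77.1% (81.0%, 84.7% and 86.5% without thinning), so the lower level in the other libraries did not come with fewer nuclei that had a UMI. Layer 2/3 neuron-like nuclei had a UMI in 2.88%, 1.11% and 1.74%, and microglia-like nuclei in 5.56%, 4.95% and 7.87%. The small Nos1 Chodl interneuron-like class, long-range projecting cells that carry both Sst and Npy, had a higher Sst level still, with 9645 CPM in 27 C57BL/6J nuclei, 16716 in 10 Nav1 KO nuclei and 10238 in 23 BTBR nuclei. Pvalb interneuron-like nuclei came next at 363, 130 and 134 CPM, within reach of microglia-like nuclei at 246, 143 and 166 CPM.

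Sst interneuron-like nuclei were made of a pair of clusters that differed in peptide content. The larger, with 347 nuclei, held 8675 CPM of Sst, 1785 of Npy and 263 of Cort, and the smaller, with 242 nuclei, held 2035 CPM of Sst, 485 of Npy and 56.0 of Cort. The 3 peptides were each higher in the larger cluster in every library, although none of them had been used to draw it. The gap was narrowest in BTBR, with 1349.7 and 525 CPM of Npy and 105 and 50.8 CPM of Cort.

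Cort, named for its role as a cortical relative of somatostatin, was read in a minority of Sst interneuron-like nuclei. Its level was 234 CPM in C57BL/6J, 278 in the Nav1 KO and 86.9 in BTBR, and 12.4%, 14.4% and 4.41% of the nuclei had a UMI (17.9%, 19.9% and 11.8% without thinning). Pvalb interneuron-like nuclei followed with 37.2 to 72.6 CPM and Nos1 Chodl interneuron-like nuclei with 28.8 to 78.7 CPM, ranges that overlapped. In layer 2/3 neuron-like nuclei the level was 0.670, 1.80 and 4.07 CPM, and in microglia-like nuclei 3.62, 10.7 and 7.68 CPM.

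Npy, which encodes neuropeptide Y, an inhibitory and appetite-raising peptide, was read in several kinds of interneuron and in a kind of glia. Lamp5 Ndnf interneuron-like nuclei led with 2600.3, 2767 and 2309 CPM, and 47.0%, 54.0% and 52.1% of them had a UMI (50.4%, 73.4% and 59.6% without thinning). Nos1 Chodl interneuron-like nuclei were far higher, at 7532, 14225 and 9418 CPM, but were too few to lead. Sst interneuron-like nuclei had 1559.8, 1402 and 1072 CPM, and Vip interneuron-like nuclei had 714, 576 and 158 CPM.

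Outside the neurons, Npy was also high in olfactory ensheathing glia-like nuclei, the glia that wrap the axons of the smell nerve. Their level was 938 CPM in C57BL/6J, 759.5 in the Nav1 KO and 858 in BTBR, and 60.0%, 47.1% and 51.2% of them had a UMI at 1000 UMIs. Microglia-like nuclei had a UMI in 4.55%, 9.19% and 7.87%, and layer 2/3 neuron-like nuclei in 2.48%, 2.18% and 2.07%. Since 424 of the Nav1 KO nuclei but 28 of the C57BL/6J nuclei were of this class, it held 16.9% of the Npy UMIs in Nav1 KO, 4.09% in BTBR and 1.30% in C57BL/6J.

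Tac1, the substance P gene, had its highest mean levels in 2 unrelated kinds of neuron. Pvalb interneuron-like nuclei, the fast-spiking cells, had 245 CPM in C57BL/6J (interval 200.4 to 297), 319 in the Nav1 KO and 258 in BTBR. Striatal medium spiny neuron-like nuclei had 188, 208 and 305 CPM, so the pair could not be ordered: Pvalb interneuron-like nuclei were higher in C57BL/6J and Nav1 KO and lower in BTBR. The share with a UMI was 16.7%, 26.9% and 20.6% in the first class (28.5%, 44.6% and 33.0% without thinning) and 19.1%, 19.8% and 24.3% in the second, against 1.26%, 0.833% and 1.35% in layer 2/3 neuron-like nuclei and 6.57%, 3.53% and 6.09% in microglia-like nuclei.

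Among medium spiny neuron-like nuclei in which a single one of the dopamine receptor genes Drd1 and Drd2 was read, the Tac1 level followed that gene. Nuclei with a Drd1 UMI and none of Drd2 had 265 CPM in C57BL/6J, 277 in the Nav1 KO and 506 in BTBR. Those with a Drd2 UMI and none of Drd1, which numbered 140, 53 and 62, had 70.9, 52.4 and 77.2 CPM. The intervals of the 2 kinds did not overlap in any library. Nuclei with a UMI of neither gene were the most numerous, at 991, 252 and 403. They had 170, 186 and 260 CPM, and could not be placed in either kind. The medium spiny neurons held 47.9% of all Tac1 UMIs in C57BL/6J, 31.5% in the Nav1 KO and 22.1% in BTBR, and the named interneuron classes held 7.18%, 10.2% and 7.70%. How many of the nuclei were striatal differed between the libraries, and its part in these shares cannot be told apart from that of the groups.

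Nmb, which encodes neuromedin B, and Adcyap1, the PACAP gene, had few counts. The level of Nmb in mitral or tufted cell-like nuclei was 29.3 CPM in C57BL/6J (5 counts, interval 9.51 to 68.4), 44.9 in the Nav1 KO and 39.7 in BTBR, and microglia-like nuclei, next in order, had 8.14 to 11.8 CPM. A UMI was found in 2.86%, 5.68% and 3.52% of the mitral or tufted cell-like nuclei and in 1.52%, 1.06% and 0.508% of microglia-like nuclei, and the intervals lay above those of microglia-like nuclei in the Nav1 KO (3.89% to 7.96% against 0.219% to 3.07%) and BTBR (1.89% to 5.95% against 0.0615% to 1.82%) but overlapped in C57BL/6J. Without thinning the Nmb shares were 5.13%, 16.4% and 12.4%. For Nmb, 4 of the 5 C57BL/6J counts came from 1 nucleus.

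Adcyap1 in mitral or tufted cell-like nuclei was at 58.6 CPM in C57BL/6J (interval 28.1 to 108), 51.8 in the Nav1 KO and 59.5 in BTBR. A UMI was found in 8.57%, 6.41% and 6.23% of these nuclei (15.4%, 19.2% and 18.1% without thinning) and in 1.01%, 0.707% and 0.761% of microglia-like nuclei. Unlike Nmb it also had a cortical pattern: middle layer neuron-like nuclei had 32.5, 30.2 and 33.7 CPM and layer 5 extratelencephalic neuron-like nuclei, which project out of the cortex, had 29.3, 31.5 and 35.1 CPM, both above layer 2/3 neuron-like nuclei at 9.04, 11.4 and 11.9 CPM. The middle layer and layer 5 classes overlapped each other and cannot be ordered. Glutamatergic classes held 52.7%, 49.3% and 35.5% of the Adcyap1 UMIs, and olfactory bulb neurons 2.07%, 19.9% and 13.5%. As for Cck, these shares were not set against the share of all counts in those classes.

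Nav1 KO was then compared with C57BL/6J in the leading class of each gene. A gene counted as past the fold where the ratio of CPM was at least 1.5 or at most 1/1.5, its interval left out 1 and the libraries held at least 20 counts of it together. Of the 10 genes, 4 were higher in Nav1 KO and 0 were lower, and the 4 were those of Vip interneuron-like nuclei. In that class, 4.87% of the 1890 genes with enough counts were higher by the same measure and 5.13% were lower, and the median ratio was 0.937.

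Cck had the largest ratio, 3.44 (2.87 to 4.13), on 173 counts in C57BL/6J and 401 in Nav1 KO. Crh was 2.45 times as high (1.86 to 3.22), Tac2 was 2.01 times as high (1.61 to 2.51) and Vip was 1.97 times as high (1.80 to 2.15). In Sncg interneuron-like nuclei, the other class rich in Cck, its level went the other way, with 1831 CPM in 62 C57BL/6J and 1108 in 29 Nav1 KO nuclei. The ratios in Vip interneuron-like nuclei rest on 74 C57BL/6J and 34 Nav1 KO nuclei. A single Nav1 KO nucleus, with 3329 UMIs, held 27.8% of the Vip, 38.6% of the Crh and 22.7% of the Cck counts of its class, and another held 30.3% of the Tac2 counts. Without the nucleus with the most UMIs of each gene in each library, the ratios were 3.64 for Cck, 1.76 for Crh, 1.68 for Tac2 and 1.61 for Vip, all still past the fold. With under 5% in place of 10% mitochondrial counts, Vip (1.41) and Tac2 (1.44) were no longer past it, and with each library clustered alone Cck (1.46) was not. Per nucleus at 1000 UMIs, the mean number of Vip UMIs was 7.70 in C57BL/6J and 11.8 in Nav1 KO, and the median was 4 and 8.

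Other markers of this class moved with its peptides. The summed level of the 6 Vip interneuron markers was 4052 CPM in C57BL/6J, 5839.8 in the Nav1 KO and 4070.1 in BTBR, and that of the 5 Sncg interneuron markers was 1824, 3813 and 1824 CPM. The 9 markers of medium spiny neurons summed to 947, 587 and 410.0 CPM there, the 6 of astrocytes to 435, 161 and 218 CPM, and the 5 of excitatory neurons to 163, 173 and 286 CPM. In Nav1 KO 6 of the 9 medium spiny neuron markers were at 0, among them Drd2 and Adora2a. The part of such differences in the make-up of the class in the peptide ratios was not tested.

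The other 6 genes were not past the fold in Nav1 KO, against 2.48% higher and 5.63% lower over the genes of Sst interneuron-like nuclei. Sst had a ratio of 0.767 (0.731 to 0.804) and Cort 1.18 (0.919 to 1.53). Npy was at 1.06 (0.935 to 1.21) in Lamp5 Ndnf interneuron-like nuclei, where 2.84% of genes were higher and 4.93% lower, and Tac1 at 1.30 (0.993 to 1.70) in Pvalb interneuron-like nuclei, where 3.21% were higher and 5.15% lower. In mitral or tufted cell-like nuclei, where 2.26% of genes were higher and 5.10% lower, the ratio of Nmb was 1.53 (0.638 to 4.81) and that of Adcyap1 0.884 (0.466 to 1.89), with wide intervals that the few C57BL/6J counts set. Under the alternatives Sst was past the fold and lower with under 5% mitochondrial counts (0.655) and with libraries clustered alone (0.579), Tac1 was higher with the peptide genes left in the clustering (1.52), and the Cort ratio ran from 0.601 to 2.13, so its direction depended on the setting.

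**Figure D3:**
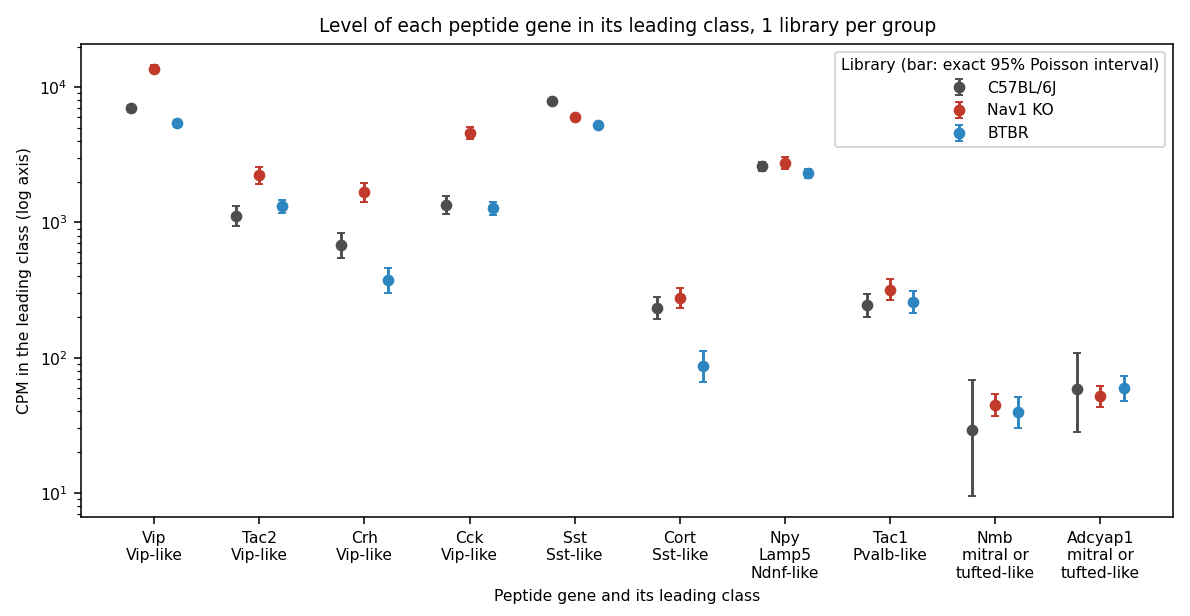
Points show the CPM of each peptide gene in its leading class on a log axis, coloured by library, and bars are exact 95% Poisson intervals, which cover counting error only. In Nav1 KO the Vip, Tac2, Crh and Cck points lie above those of both other libraries, and in BTBR the Cort point, at 86.9 CPM, and the Crh point, at 376 CPM, lie below both others.

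Sst was lower in Nav1 KO than in C57BL/6J in many kinds of nuclei outside its leading class. It was compared in 16 classes, the leading class (not past the fold) included, and was lower past the fold in 10 of them and higher in 2, with a median ratio of 0.526, while 5.10% to 8.36% of all genes compared were lower in these classes. In Pvalb interneuron-like nuclei the ratio was 0.357 (0.254 to 0.494), on the levels given above. Middle layer neuron-like nuclei had 35.5 CPM in C57BL/6J and 13.6 in the Nav1 KO, a ratio of 0.384 (0.301 to 0.489), and astrocyte-like nuclei had 176 and 59.5 CPM, a ratio of 0.339 (0.273 to 0.419). The classes in which it was lower included glia and excitatory neurons, which are not known to make somatostatin, and in layer 2/3 neuron-like nuclei the levels were 24.3 and 12.98 CPM. BTBR, set against the same C57BL/6J library, had Sst lower past the fold in 4 of 17 classes and higher in 2. Its median ratio was 0.777, and 4.36% to 7.75% of all genes compared were lower in these classes. In Pvalb interneuron-like nuclei the BTBR ratio was 0.368 (0.269 to 0.498), so that value was not particular to the Nav1 KO. Cck had a median ratio of 1.28 over 18 classes and was past the fold, higher, in 3, its leading class and astrocyte-like and olfactory bulb interneuron-like nuclei. Over the 18 classes, 1.72% to 5.14% of all genes compared were higher. Lower levels in Nav1 KO were not limited to Sst. Tac1 was lower past the fold in 5 of 15 classes and higher in 0, with a median ratio of 0.623. Vip was lower in 5 of 13 classes and higher in 1, with a median ratio of 0.704. In the classes compared for these 2 genes, 5.10% to 8.36% of all genes were lower as well.

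BTBR was compared with C57BL/6J in the same manner. Of the 10 genes, 0 were higher and 2 were lower in their leading class. Crh in Vip interneuron-like nuclei had a ratio of 0.550 (0.405 to 0.748), on 88 counts in each library, in a class where 5.34% of genes were higher and 2.91% lower. Cort in Sst interneuron-like nuclei had a ratio of 0.371 (0.267 to 0.510), on 112 and 61 counts, in a class where 5.87% of genes were higher and 4.80% lower. In C57BL/6J 24.1% of the Cort counts came from 1 nucleus, and without the highest nucleus of each library the ratio was 0.443 (0.310 to 0.628). Where each library was clustered alone, Crh was at 0.890 and no longer past the fold.

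Sst itself was just short of the fold in BTBR, with a ratio of 0.668 (0.638 to 0.699), and passed it in 5 of the alternative settings, for example at 0.620 with under 5% mitochondrial counts. Vip had 0.777 (0.713 to 0.847) and passed it in 3 settings at 0.619 to 0.647. The ratio was 0.948 (0.783 to 1.15) for Cck, 1.18 (0.966 to 1.45) for Tac2 and 0.888 (0.795 to 0.993) for Npy, the last in a class with 4.91% of genes higher and 4.36% lower. With libraries clustered alone, Cck was lower at 0.295 and Tac2 higher at 1.66. Tac1 had 1.05 (0.802 to 1.38), where 6.17% of genes were higher and 4.63% lower. Nmb had 1.35 (0.547 to 4.33) and Adcyap1 1.02 (0.526 to 2.20), where 4.22% were higher and 4.53% lower.

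Several values away from the leading classes were past the fold in BTBR. Npy in Vip interneuron-like nuclei had a ratio of 0.221 (0.147 to 0.327), from 92 counts in 74 nuclei against 37 in 119. Tac1 in medium spiny neuron-like nuclei had a ratio of 1.62 (1.46 to 1.80), on 986 and 573 counts. Tac2 was tested in 11 classes, and was higher past the fold in 6 of them and lower in 0. In the 11 classes, 3.55% to 8.70% of all genes compared were higher. Sst interneuron-like nuclei had a ratio of 5.01 (2.66 to 10.4), and medium spiny neuron-like nuclei had 7.37 (3.58 to 16.4), the latter on 11 and 29 counts. The others were astrocyte-like (5.565), oligodendrocyte-like (5.205), layer 6 corticothalamic neuron-like (3.15) and layer 2/3 neuron-like nuclei (2.62). These glial and excitatory classes had at most 30.1 CPM of Tac2 in BTBR. In Vip interneuron-like nuclei, its leading class, Tac2 was not past the fold. Other ratios were also far from 1. Vip in mitral or tufted cell-like nuclei was at 0.0547 (0.0301 to 0.0962), on 42 counts in 39 nuclei and 19 in 386. Vip in endothelial cell-like nuclei was at 13.4 (2.25 to 546) on 1 and 34 counts. Cort in astrocyte-like nuclei was at 0.167 (0.0696 to 0.363) on 29 and 9 counts. Over 8 classes, Cort was higher past the fold in 3 and lower in 2. It was higher in layer 2/3 neuron-like nuclei at 6.08 (2.14 to 23.8), on levels of 0.670 and 4.07 CPM. In the 8 classes, 3.55% to 8.70% of all genes compared were higher and 4.63% to 7.75% lower. Vip in mitral or tufted cell-like nuclei and Cort in astrocyte-like nuclei were also low in Nav1 KO, with ratios of 0.0873 and 0.0957 to the same C57BL/6J library. Neither was therefore particular to BTBR. Tac2 in Sst interneuron-like nuclei was past the fold and higher in Nav1 KO as well, at 2.28 (1.10 to 5.07), so its direction there was not particular to BTBR either. The values of this paragraph were singled out after they were seen.

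The libraries could also be read for peptides that were detected together. In Sst interneuron-like nuclei at 1000 UMIs, Npy was found in 45.1% of the C57BL/6J nuclei that had a Sst UMI and 13.3% of those that had none. In Nav1 KO the shares were 57.6% and 20%, and in BTBR 42.9% and 15.4%, so nuclei with Sst had Npy more often in each library and the intervals of the pair did not overlap. Cort was found in 12.3% of nuclei with Sst and 1.52% of those without it over the 3 libraries together, and 54 of the 56 nuclei with Cort had Sst as well.

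In Vip interneuron-like nuclei of the 3 libraries together, Tac2 and Crh were found more often beside Vip, and for Cck the intervals overlapped. Over the 3 libraries, Tac2 was found in 49.4% of nuclei with Vip and 7.69% of nuclei without it (intervals 41.4% to 57.4% and 1.61% to 20.9%). Crh was found in 28.8% and 7.69%, with intervals of 21.9% to 36.4% and 1.61% to 20.9%. The second share is 3 of 39 nuclei, and BTBR, where Crh was lowest, gave 24 of the 39. Within each single library the Crh shares had the same order, but their intervals overlapped. Tac2 was found in 67.3% of nuclei with Crh and 32.7% of those without (52.5% to 80.0% and 25.2% to 40.8%). The order was the same in every library: 61.9% and 25.6% in C57BL/6J, 81.8% and 45.0% in Nav1 KO, and 64.7% and 33.3% in BTBR. Within each single library the intervals overlapped. Cck was found in 40.6% of nuclei with Vip and 25.6% of those without (32.9% to 48.7% and 13.04% to 42.1%), and in Nav1 KO, with 3 nuclei without Vip, the order was turned at 53.6% and 66.7%.

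The other pairs showed little. In Pvalb interneuron-like nuclei Sst was found in 14.9% of nuclei with Tac1 and 7.59% of those without, with intervals that overlapped. Cck in Lamp5 Ndnf interneuron-like nuclei was at 18.9% with Npy and 17.5% without it, and its order differed between libraries. Vip in Sncg interneuron-like nuclei was at 15.3% with Cck and 11.1% without, and Adcyap1 in mitral or tufted cell-like nuclei was at 6.67% with Nmb and 6.41% without.

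**Figure D4:**
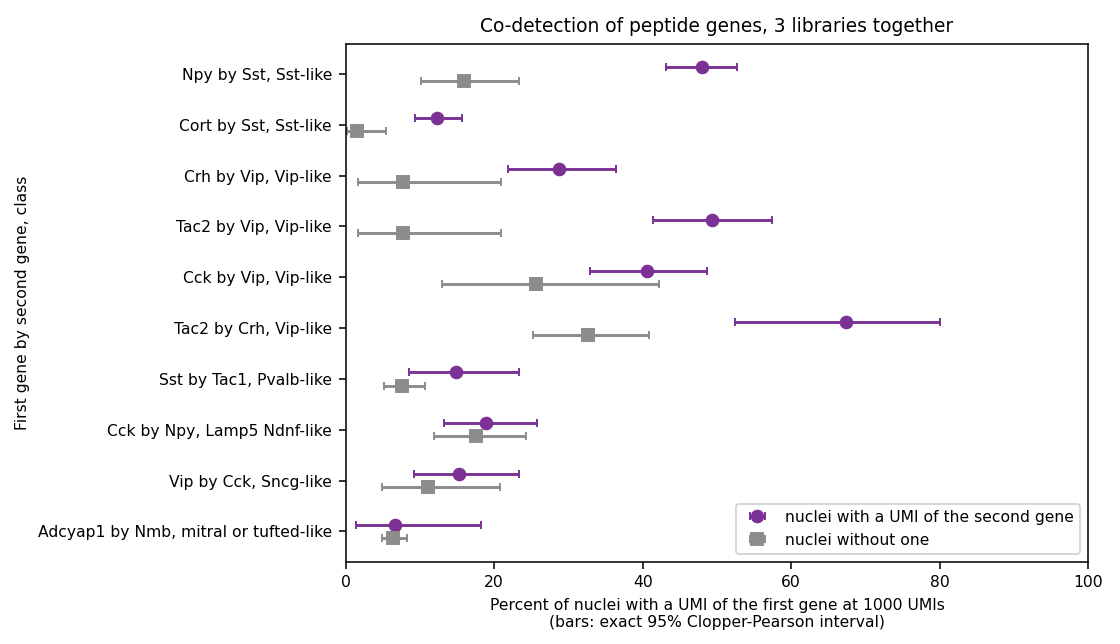
For each pair, the circle is the percentage of nuclei with a UMI of the first gene among nuclei with the second gene, the square is the same among nuclei without it, at 1000 UMIs over the 3 libraries together, and bars are exact 95% Clopper-Pearson intervals. The circle and square are far apart for Npy by Sst (47.9% and 15.9%), Tac2 by Vip (49.4% and 7.69%) and Tac2 by Crh (67.3% and 32.7%), and nearly coincide for Cck by Npy and Adcyap1 by Nmb.

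The number of peptide genes per nucleus summed up these patterns. It depends on which genes were listed. Vip, Tac2, Crh and Cck all led in Vip interneuron-like nuclei, and Npy alone in Lamp5 Ndnf interneuron-like nuclei. The order of classes is therefore no general measure of how many peptides a cell type makes. At 1000 UMIs, 37.2% of the Vip interneuron-like nuclei had a UMI of 3 or more of the 10 genes, with 35.9% in C57BL/6J, 54.8% in the Nav1 KO and 32.7% in BTBR. The share was 20.7% in Nos1 Chodl interneuron-like nuclei, 15.6% in Sst interneuron-like nuclei and 9.29% in Sncg interneuron-like nuclei. It was 4.55% in Pvalb interneuron-like and 1.85% in Lamp5 Ndnf interneuron-like nuclei, so the latter mostly had 1 of the genes or none. In layer 2/3 neuron-like nuclei it was 0.113% and in microglia-like nuclei 1.71%. The peptide genes made up a mean of 24.3 of each 1000 UMIs in Nos1 Chodl interneuron-like nuclei, 11.6 in Vip interneuron-like and 8.43 in Sst interneuron-like nuclei, against 0.330 in layer 2/3 neuron-like nuclei.

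**Figure D5:**
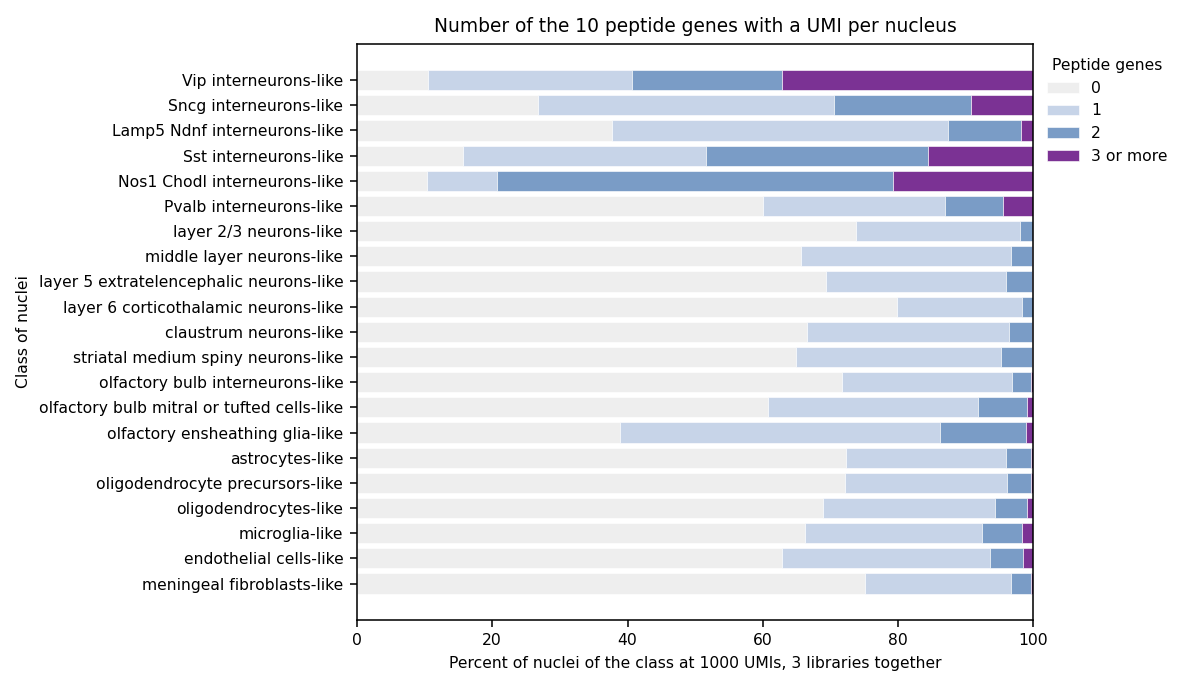
Stacked bars give, for each class of nuclei, the percentage with a UMI of 0, 1, 2 or 3 or more of the 10 peptide genes at 1000 UMIs per nucleus, the 3 libraries together. Vip interneuron-like nuclei had 3 or more in 37.2%, and 58.6% of Nos1 Chodl interneuron-like nuclei had exactly 2, while 73.8% of layer 2/3 neuron-like nuclei had none.

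Genes with a like pattern were sought over 64 points, each a class in a library with at least 30 nuclei, by the Pearson correlation of log2(CPM + 5) among 14786 genes. The points of a library share its background and depth, so the coefficients are a description. The genes most like Vip were 2 other members, Tac2 (0.90) and Crh (0.88), and Htr3a (0.82), a serotonin receptor gene that was among the markers of the class. Sst was most like Crhbp (0.84), which encodes the binding protein of the Crh peptide, and Cck was most like Htr3a (0.83). Npy was most like Arl4c (0.83), Cort was most like Rbp4 (0.83), a retinol carrier gene, and Tac1 was most like Mme (0.80), which encodes neprilysin, an enzyme that degrades substance P. Nmb was most like Doc2g (0.76), which was a marker of mitral or tufted cells, and Adcyap1 was most like Ntng1 (0.76).

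Some receptor genes led in excitatory neurons. Of 21 genes for receptors and the binding protein, 20 had counts. Vipr1, a receptor of the Vip peptide, led in middle layer neuron-like nuclei with 81.4 CPM in C57BL/6J, 124 in the Nav1 KO and 126 in BTBR. It was just past the fold in both comparisons at 1.52 (1.36 to 1.70) and 1.55 (1.36 to 1.76). In that class 3.91% of all genes were higher in the Nav1 KO and 8.21% in BTBR. Sstr2 was higher in Nav1 KO claustrum neuron-like nuclei at 1.91 (1.18 to 3.03), where 2.58% of genes were higher. Tacr1 was lower in Nav1 KO olfactory bulb interneuron-like nuclei at 0.352 (0.155 to 0.933), where 5.88% were lower. Crhr1, the main receptor of the Crh peptide, led in middle layer neuron-like nuclei, as Vipr1 did, with 74.8, 73.2 and 85.9 CPM. Cckbr, the brain receptor of cholecystokinin, led in layer 5 extratelencephalic neuron-like nuclei with 57.7, 57.6 and 74.7 CPM.

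Interneurons led for others. Crhbp was highest in Sst interneuron-like nuclei, with 322, 360.0 and 283 CPM. Npy1r (116, 196 and 128 CPM) and Adcyap1r1, the PACAP receptor gene (163, 150 and 132 CPM), were highest in Vip interneuron-like nuclei. None of these 3 was past the fold. In the leading classes of the peptides, 1 to 8 of the 21 genes had enough counts to be compared. In Nav1 KO Crhbp in Pvalb interneuron-like nuclei was higher, and in BTBR Sstr1 in Sst interneuron-like nuclei was higher at 2.89 (1.31 to 7.23).

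Of 12 genes that process peptide precursors or form dense core vesicles, 10 could be compared in Vip interneuron-like nuclei. In Nav1 KO 5 were higher and 0 lower, beside 4.87% of all genes of the class higher and 5.13% lower, and their median ratio was 1.71, beside 0.937 over all genes. They were Pcsk2, a convertase that cuts precursors, Pcsk1n, and the granins and granin relatives Scg2 (2.05, 1.43 to 2.96), Scg3 (2.12, 1.02 to 4.54) and Chga (2.39, 1.28 to 4.57). In BTBR 3 were higher, Pcsk2, Pcsk1n and Scg5, and 0 lower, with a median of 1.20, beside 5.34% of all genes higher and a median of 1.05. In Sst interneuron-like nuclei Scg2 was higher in Nav1 KO and Scg5, a chaperone of Pcsk2, in BTBR, with medians of 1.03 and 1.25, beside 2.48% and 5.87% of all genes higher. In the other 3 leading classes, 1 of 10 genes was higher and 1 lower (Lamp5 Ndnf interneuron-like), 2 of 10 were higher (Pvalb interneuron-like) and 2 of 12 were higher (mitral or tufted cell-like) in the Nav1 KO, and 1, 2 and 4 were higher and 0 lower in BTBR. The shares of all genes that were higher in these classes were 2.84%, 3.21% and 2.26% in the Nav1 KO and 4.91%, 6.17% and 4.22% in BTBR.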

How the data were processed

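Nuclei of prefrontal cortex were sorted and sequenced with the Chromium 3′ v3.1 kit. The values used are counts: the deposited filtered matrices hold whole UMI counts per gene and barcode, which the authors made with Cell Ranger 6.0.0 on mm10. Whether intronic reads were counted is not given in the sources used here. Matrices were read with Python 3.11.15 (numpy 2.4.6, scipy 1.17.1, pandas 2.3.3). Kept nuclei had 200 genes or more and less than 10% of counts from mitochondrial genes, which left library totals of 38704723 (C57BL/6J), 50965774 (Nav1 KO) and 48948184 (BTBR) counts. Counts were log-normalised, and 2000 variable genes without the 10 peptide genes gave 30 principal components. From these came a graph of 20 neighbours and Leiden clusters at resolution 1 (scikit-learn 1.9.0, igraph 0.11.9, leidenalg 0.10.2). Interneuron clusters were clustered again with 20 components. A cluster took the name of the marker list with the highest mean log2 fold, if it reached 0.75 (1 for interneurons), thresholds set after the data were seen. A listed marker also had to be among the 10 leading genes of the cluster, with no other list having more there. Several of the listed markers had to be detected, and very small or very shallow clusters stayed unnamed. The members and lists were chosen with earlier results of these data known. Scrublet (scanpy 1.11.5) called 5 nuclei in all as doublets and so had not worked. No nucleus was removed for it.

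Counts were summed per class and library. Intervals are at 95%: exact Poisson for CPM, Clopper-Pearson for shares, and the binomial split of counts for ratios. Thinning to 1000 UMIs left out 2394, 1249 and 2096 shallower nuclei. Groups follow the labels, 1 library each, so there was no test, no replicate error and no p-value, and the code was tested on simulated data. Named genes were the 10 members, the 3 genes most like each in pattern (at least 200 counts), receptor and processing lists, and markers; of the 3 genes most like each, the first is given, and all for Vip. Figures were drawn with matplotlib 3.10.9. Alternatives changed the filters, clustering, scaling, depth, seed and doublets.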

Additional observations from a re-analysis of the deposited data

How the results depend on the processing

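The ratios and shares in the leading classes, the leading classes themselves and the co-detection of pairs, were computed again under other settings; the other values were not. No ratio past the fold in the reported setting changed sign, while Cort in Nav1 KO, not past it there, was higher or lower in others. With under 5% mitochondrial counts, 2 in place of 4 peptide genes were past the fold and higher in Nav1 KO, 1 was lower in place of 0, and 4 in place of 2 were lower in BTBR. With each library clustered alone, 2 were lower in Nav1 KO, 1 was higher and 1 lower in BTBR, and 5 of the 10 leading classes were the same. Without the nucleus with the most UMIs of each gene, an alternative chosen after seeing the data like the mean number of UMIs per nucleus, 1 gene (Nmb, 5 counts in C57BL/6J) was higher in BTBR, and 5 genes in place of 4 were higher in Nav1 KO. The cause of these changes was not tested. At higher resolution Tac1 led in medium spiny neuron-like nuclei and the other 9 leading classes were kept. The median share with a UMI over genes was 31.2% at 1000 UMIs, 23.4% at 500 and 41.4% at 2000. The lower Cort level in BTBR Sst interneuron-like nuclei was past the fold in every alternative that gave a value. Clustered alone, BTBR had no Sst interneuron-like class and C57BL/6J no mitral or tufted cell-like class, so Sst and Cort in BTBR, and Nmb and Adcyap1 in both comparisons, have no value there. No paired analysis was possible because each group was a single library. The number of nuclei limits what could be read: 34 Nav1 KO Vip interneuron-like nuclei carry 4 of the ratios, and 5 Nmb counts its C57BL/6J level.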
